A study of Homo sapiens with 6 samples.

Results

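Imprinted genes are transcribed mainly from the copy inherited from 1 parent. The 10 genes described here, H19, IGF2, MEG3, PEG10, PEG3, SNRPN, PLAGL1, CDKN1C, MEST and KCNQ1OT1, were chosen by name. All 10 were found by symbol among the 78932 rows of the count table. The test was limited to genes with 10 counts or more in 3 or more libraries, which held for 6 of the 10 genes and for 18474 genes of the table. H19, MEG3, PEG3 and MEST had too few counts for the test and are described by those counts, and PEG3 and MEST, with 0 to 2 counts in every library, were not detected above the limit of 3 counts that a count of 0 allows.

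T24, an established human urothelial carcinoma line, was the only line sequenced. In 3 cultures a non-targeting siRNA was transfected (siNC), and in 3 an siRNA against TRIM28 (siTRIM28), with KeygenMAX3000 reagent in both groups. The labels number the libraries of each group as replicates 1 to 3 and set none apart by batch. The libraries were made from poly(A) RNA with a stranded kit. Which TRIM28 siRNA these cultures received, and for how long, is not given in the sources used here. All cultures share the genome of this 1 line, and the counts do not tell the parental copies of a gene apart.

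At an imprinted locus, DNA methylation set in the egg or the sperm marks an imprinting control region, and this mark is kept through cell division. TRIM28 (KAP1) is a corepressor brought to DNA by KRAB zinc finger proteins. Among these, ZFP57 and ZNF445, bind methylated control regions, where TRIM28 and the histone methyltransferase SETDB1 help to hold the mark in the early embryo. Imprinted genes often lie in clusters that include long noncoding RNAs, and many of them control growth.

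Start sites of 5 of the 10 genes (PLAGL1, SNRPN, MEST, MEG3 and H19) matched a RefSeq promoter window on GRCh38.p14, from 250 bases before to 50 bases after the start, with 18 windows in all. IGF2, PEG10, PEG3, CDKN1C and KCNQ1OT1 had no match. The hexamer TGCCGC, the core of the methylated sequence that ZFP57 binds, was searched on both strands. It was present in 10 of the 18 windows and in 16.7% of all 35116 windows of this length. Most of the windows with a match were those of MEST and MEG3, which partly overlap and so hold some of the same matches. The windows of PLAGL1 and of SNRPN do not overlap. Windows of the called gene PLAGL1 and of SNRPN at starts that are known to be imprinted are shown as examples, and a second PLAGL1 window is shown for contrast. MEST at chr7:130491835-130492134 held 3 matches and each MEG3 window held 1, although neither gene had enough counts for the test. Whether matches go with a change in level was not tested. All are written on the strand of the gene with the hexamer or its reverse complement in capitals. The imprinted PLAGL1 start at chr6:144008210-144008509 held 2 matches facing each other and 39 CG dinucleotides, more than 91.3% of all windows. The upstream PLAGL1 start at chr6:144064550-144064849 held 0 matches and 31 CG dinucleotides. The SNRPN start at chr15:24954737-24955036 held 2 matches and 18 CG dinucleotides. A match is a description of these letters and not a bound site.
PLAGL1, imprinted start: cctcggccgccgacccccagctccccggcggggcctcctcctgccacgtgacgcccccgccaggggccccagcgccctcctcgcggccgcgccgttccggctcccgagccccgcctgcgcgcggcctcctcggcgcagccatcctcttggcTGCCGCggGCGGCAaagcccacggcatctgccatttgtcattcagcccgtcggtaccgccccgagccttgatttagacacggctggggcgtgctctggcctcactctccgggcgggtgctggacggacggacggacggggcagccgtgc
PLAGL1, upstream start: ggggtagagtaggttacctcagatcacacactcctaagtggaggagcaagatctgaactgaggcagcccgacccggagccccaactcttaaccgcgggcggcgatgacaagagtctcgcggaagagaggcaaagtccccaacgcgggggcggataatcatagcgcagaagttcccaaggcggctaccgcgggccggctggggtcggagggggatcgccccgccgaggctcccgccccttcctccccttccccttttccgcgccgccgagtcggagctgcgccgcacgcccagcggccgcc
SNRPN, imprinted start: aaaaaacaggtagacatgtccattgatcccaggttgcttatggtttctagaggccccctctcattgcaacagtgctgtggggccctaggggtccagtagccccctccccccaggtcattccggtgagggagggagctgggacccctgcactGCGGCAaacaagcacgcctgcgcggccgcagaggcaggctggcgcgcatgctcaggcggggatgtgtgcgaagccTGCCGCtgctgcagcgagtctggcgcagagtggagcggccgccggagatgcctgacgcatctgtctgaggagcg

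H19 and MEST also carry miRNAs, whose mature RefSeq forms are shown with the seed, bases 2 to 8, in capitals, because the host genes are members. The miR-675-5p sequence lies within H19 at chr11:1996800-1996822 on the minus strand, and miR-335-5p within MEST at chr7:130496126-130496148 on the plus strand. Their seeds differ. A poly(A) library does not measure mature miRNAs. Counts on the hairpin gene MIR675 were 0 in 5 libraries and 1 in siTRIM28 2, and MIR335 had 0 counts in every library.
hsa-miR-675-5p: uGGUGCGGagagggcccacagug
hsa-miR-335-5p: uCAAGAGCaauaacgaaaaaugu

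Total counts lay between 12989362 and 13942383 in siNC and between 11712623 and 14018052 in siTRIM28, so that 3 counts, the most that a count of 0 allows for, equalled 0.214 to 0.253 CPM (counts scaled to a library of 1e+06 reads). TRIM28 was at 103 ± 4.08 CPM in siNC and 8.84 ± 0.656 CPM in siTRIM28 (SD, n = 3 each), and its log2 fold change of -3.54 matched the labels. Replicates were not equally alike. Over genes with at least 10 counts in the 2 compared libraries together, the chi-square per degree of freedom was 1.08 between siNC 1 and 2 but 4.17 and 4.22 between each of these and siNC 3, and it was 1.22 between siTRIM28 2 and 3 but 6.25 and 5.65 between each of these and siTRIM28 1. A value of 1 is what counting error alone gives, so the closest libraries of each group differed by little more. SDs and p-values treat the 3 libraries of a group as independent, which was not tested. Of 5 epithelial markers, KRT7, KRT8 and KRT18 had at least 10 counts in every library, whereas KRT19 and EPCAM had at most 7. EPCAM went from 5, 5 and 6 counts in siNC to 2, 3 and 3 in siTRIM28, lower without overlap but too few for the test. The summed level of all 5 lay between 189 and 196 CPM in siNC and between 207 and 214 CPM in siTRIM28, with KRT7 (log2 fold change 0.56, edgeR adjusted p = 0.0126) and KRT8 (0.14, adjusted p = 0.0356) called higher. Of 7 urothelial markers UPK1B was at 0 in every library and only PPARG had at least 10 counts in every library. Their summed level lay between 8.79 and 9.07 CPM in siNC and between 10.8 and 12.04 CPM in siTRIM28, with UPK1A higher at 58, 38 and 34 counts against 17, 15 and 4 (log2 fold change 1.94, edgeR adjusted p = 5.49e-04). GATA3 went from 10, 10 and 4 counts in siNC to 1, 4 and 4 in siTRIM28, which overlapped and were too few for the test. Summed fibroblast markers lay between 1.94 and 2.73 CPM in siNC and between 3.63 and 5.14 CPM in siTRIM28, mainly through COL1A1 at 9 to 17 counts in siNC and 36 to 45 in siTRIM28, while COL1A2, DCN and LUM had at most 2 counts. PDGFRA did not rise, with 18, 14 and 19 counts in siNC and 14, 17 and 12 in siTRIM28 (log2 fold change -0.14, edgeR adjusted p = 0.73). Of the leukocyte markers, CD68 gave nearly all counts, CD3E was at 0 and PTPRC had at most 4. The summed endothelial markers (0.432 to 0.503 CPM in siNC, 0.712 to 1.01 in siTRIM28) and germ or pluripotent cell markers (0.0720 to 0.287 in siNC, 0.421 to 0.589 in siTRIM28) were low, with CDH5, KDR, LIN28A and DPPA4 at 0. PECAM1 had 5, 4 and 6 counts in siNC and 10, 9 and 11 in siTRIM28. POU5F1 had 4, 1 and 2 in siNC and 7, 4 and 7 in siTRIM28. Both were higher in siTRIM28 without overlap in CPM but had too few counts for the test. The part of these differences in the results below was not tested, and in bulk RNA fewer cells of a type cannot be told apart from less RNA per cell.

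The question was which imprinted genes differ in level after silencing of TRIM28. CDKN1C, KCNQ1OT1, IGF2 and PLAGL1 rose in siTRIM28, PEG10 and SNRPN did not pass the test, and none of the 6 tested genes fell. Thus 4 of 6 were called, all of them higher, at an adjusted p under 0.05 (edgeR quasi-likelihood test, Benjamini-Hochberg adjustment over all genes tested). Over the whole table, 41.8% of tested genes were called, with 21.3% higher and 20.5% lower. The median log2 fold change was 0.41 over the 6 genes and 0.02 over all genes tested. The 2 groups did not overlap in CPM for the same 4 genes, and they did not overlap for 52% of all tested genes, with siTRIM28 higher for 26.3%. With so much of the table changed and 6 genes tested, these counts describe these genes and do not set imprinted genes apart as a class.

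**Figure D1:**
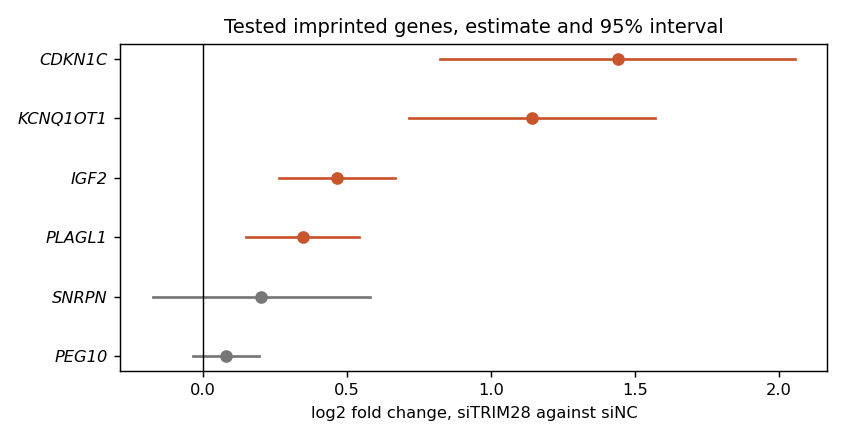
Log2 fold change of the 6 tested imprinted genes, siTRIM28 against siNC (horizontal axis), with points for the edgeR estimate and lines for its 95% interval. Genes with an adjusted p under 0.05 are orange, the others grey. The intervals of CDKN1C (0.82 to 2.06), KCNQ1OT1 (0.72 to 1.57), IGF2 (0.26 to 0.67) and PLAGL1 (0.15 to 0.54) lie above 0, and those of SNRPN and PEG10 cross it.

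CDKN1C had the largest change of the tested members. It encodes p57, an inhibitor of cyclin-dependent kinases that is expressed from the maternal copy, and it lies at chr11:2883213-2885775 on GRCh38 (ENSG00000129757). Its counts were 17, 18 and 15 in siNC 1 to 3 and 50, 25 and 52 in siTRIM28 1 to 3. These correspond to 1.22, 1.30 and 1.17 CPM against 3.56, 2.10 and 4.38 CPM. The siNC cultures were tightly grouped, siTRIM28 2 was the lowest of its group, and the groups did not overlap. The log2 fold change was 1.44 (SE 0.282, edgeR adjusted p = 0.00155), and it was 1.21 to 1.66 with single libraries left out. At these low counts the ratio of the summed counts, scaled by library size, was 2.73, with an exact 95% interval of 1.95 to 3.87 that covers counting error only. No other annotated gene overlaps CDKN1C.

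KCNQ1OT1 is a long noncoding RNA transcribed from the paternal copy, antisense to KCNQ1. In the mouse its orthologue silences neighbouring genes, Cdkn1c among them, on the same chromosome. It spans chr11:2597308-2699988 on the minus strand (ENSG00000269821). Counts of 21, 19 and 24 in siNC stood against 46, 43 and 43 in siTRIM28, or 1.51, 1.37 and 1.88 CPM against 3.27, 3.62 and 3.62 CPM. Every siTRIM28 culture was above every siNC culture, with little spread in either group. The log2 fold change was 1.14 (SE 0.195, edgeR adjusted p = 6.05e-04), with 1.05 to 1.27 when single libraries were left out. KCNQ1, a potassium channel gene on the opposite strand, had 19, 15 and 17 counts against 18, 24 and 18, and its log2 fold change of 0.34 did not pass the test (SE 0.261, edgeR adjusted p = 0.33). The kit keeps strand, but whether the counting used it is not given in the sources used here, and without it reads of the 2 genes cannot be told apart where they overlap.

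IGF2, a fetal growth factor expressed from the paternal copy in most tissues, was the most abundant member. It spans chr11:2129112-2158391 on the minus strand (ENSG00000167244). The siNC cultures had 6203, 6483 and 4408 counts and the siTRIM28 cultures 8431, 7155 and 6338. On the CPM scale these were 445, 467 and 345 against 600.2, 602 and 534, with means of 419 ± 65.3 and 579 ± 39.1 (SD, n = 3 each). The groups did not overlap, and siNC 3, which also stood apart from siNC 1 and 2 over all genes, was the lowest of the 6. The log2 fold change was 0.47 (SE 0.0925, edgeR adjusted p = 0.00171). It was 0.34 without siNC 3 and 0.55 without siNC 2, the lowest and highest values with 1 library left out, and the gene was called in both.

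Most of the IGF2 reads appear to have been counted a second time, which was not checked on the reads. The unnamed gene ENSG00000284779 lies within IGF2 on the same strand, at chr11:2131395-2149603, and its counts equalled 96.2% to 97.7% of the IGF2 counts in each library. Its log2 fold change of 0.47 (SE 0.0958) is therefore not taken as a measurement separate from that of IGF2. The readthrough gene INS-IGF2 had 93, 100 and 103 counts in siNC and 107, 110 and 92 in siTRIM28, which overlapped, and it was not called (log2 fold change 0.17, edgeR adjusted p = 0.324). The antisense gene IGF2-AS was too low to be tested, with 2, 1 and 3 counts against 8, 12 and 3.

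PLAGL1 encodes a zinc finger transcription factor expressed from the paternal copy in most tissues, and loss of methylation at its imprinted start is found in transient neonatal diabetes. It spans chr6:143940300-144064598 on the minus strand (ENSG00000118495). Counts were 272, 314 and 236 in siNC and 331, 311 and 327 in siTRIM28. After scaling, the cultures were at 19.5, 22.6 and 18.4 CPM against 23.6, 26.2 and 27.5 CPM. The groups did not overlap, although siNC 2 came close to siTRIM28 1. The log2 fold change was 0.35 (SE 0.0889, edgeR adjusted p = 0.00824). Its lowest value was 0.28 without siNC 3, where the adjusted p of 0.0451 was close to the threshold. HYMAI, a noncoding RNA that begins beside the imprinted PLAGL1 start shown above, had 15, 9 and 8 counts against 12, 15 and 20 and was not called (log2 fold change 0.66, SE 0.346, edgeR adjusted p = 0.153). Counts per gene do not tell which of the PLAGL1 starts the reads came from.

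**Figure D2:**
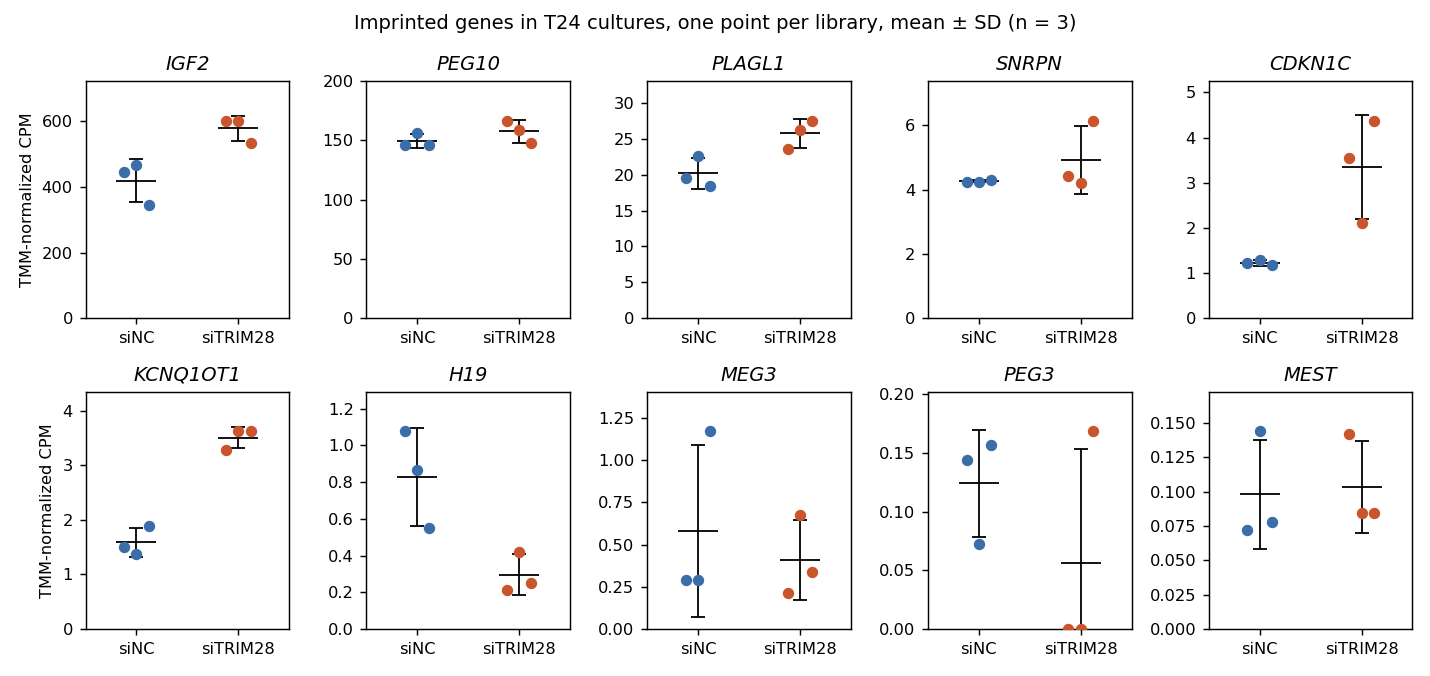
TMM-normalized CPM (vertical axes, each from 0) of the 10 imprinted genes in siNC (blue) and siTRIM28 (orange), with 1 point per library and black marks for the mean and SD of 3 libraries. In the panels of IGF2, PLAGL1, CDKN1C and KCNQ1OT1 every siTRIM28 point is above every siNC point, in that of H19 every one is below, and in the other 5 panels the groups overlap.

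PEG10, a paternally expressed gene derived from a retrotransposon and needed for the placenta, spans chr7:94656325-94669637 (ENSG00000242265). It had 2031, 2170 and 1865 counts in siNC and 2343, 1888 and 1754 in siTRIM28. Its 146, 156 and 146 CPM overlapped the 167, 159 and 148 CPM of siTRIM28. The log2 fold change of 0.08 had a 95% interval of -0.04 to 0.20 (edgeR adjusted p = 0.25), which leaves room for a rise up to its upper end. SGCE, a sarcoglycan gene that shares the control region of PEG10 and is transcribed away from it, was not called either (log2 fold change 0.15, edgeR adjusted p = 0.0824), although its groups did not overlap.

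SNRPN, which encodes the splicing protein SmN, is expressed from the paternal copy and lies in the Prader-Willi region at chr15:24823637-24978577 (ENSG00000128739). Counts were 59, 59 and 55 in siNC and 62, 50 and 73 in siTRIM28. On the CPM scale 4.24, 4.25 and 4.30 stood against 4.41, 4.21 and 6.15. Only siTRIM28 3 was clearly above the siNC cultures, and the groups overlapped. The log2 fold change was 0.20, with a 95% interval of -0.17 to 0.58 (edgeR adjusted p = 0.378), and it was 0.01 without siTRIM28 3. SNURF, an upstream reading frame on the same transcripts, overlaps SNRPN on the same strand and may share reads with it, which was not checked. The log2 fold change of SNURF was 0.07 (edgeR adjusted p = 0.804). RPS27P2, which lies within SNRPN on the opposite strand, had 63, 40 and 51 counts in siNC and 32, 32 and 34 in siTRIM28. Its groups did not overlap, with siTRIM28 lower, but it was not called (log2 fold change -0.55, edgeR adjusted p = 0.0534). RPL5P1 (log2 fold change -0.12) and ENSG00000214265 (0.04), which also overlap SNRPN, were not called. Further along the cluster, the noncoding host RNA SNHG14 rose (log2 fold change 0.31, edgeR adjusted p = 0.0172) and UBE3A, a ubiquitin ligase gene imprinted in neurons, fell (log2 fold change -0.18, edgeR adjusted p = 0.0298). SNHG14 and UBE3A overlap on opposite strands, and each kept its call in 10 of 15 alternative analyses. The alternatives without a call included siNC 2 or siNC 3 left out for UBE3A and siNC 1, siNC 3 or siTRIM28 2 left out for SNHG14, with log2 fold changes over all 15 from -0.25 to -0.13 and from 0.27 to 0.35.

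The 4 genes below the filter differed in how much their counts allow. H19, a maternally expressed noncoding RNA that shares enhancers with IGF2, spans chr11:1995165-2004552 on the minus strand (ENSG00000130600). It had 15, 12 and 7 counts in siNC and 3, 5 and 3 in siTRIM28, or 1.08, 0.864 and 0.547 CPM against 0.214, 0.421 and 0.253 CPM. The groups did not overlap, with siTRIM28 lower, but 2 of the 3 siTRIM28 libraries held only 3 counts. The ratio of the summed counts, 34 and 11, was 0.348 after scaling (exact 95% interval 0.159 to 0.702, counting error only). An exact two-sided permutation test over the 6 libraries gave p = 0.1, the smallest that 3 against 3 allows. With every gene of at least 1 count tested, the log2 fold change was -1.50 (SE 0.485, edgeR adjusted p = 0.0137), which made 5 called members. In that fit the edgeR adjusted p of IGF2 went from 0.00171 to 2.59e-26 and that of PEG10 from 0.25 to 0.516. Its p-values are therefore not comparable with those of the main test.

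MEG3, a maternally expressed noncoding RNA of the DLK1-DIO3 cluster, spans chr14:100779206-100861018 (ENSG00000214548). It had 4, 4 and 15 counts in siNC against 3, 8 and 4 in siTRIM28. The 15 counts of siNC 3 set its mean, and the other 5 libraries had at most 8. The ratio of the summed counts was 0.701 (exact interval 0.340 to 1.40), so no difference was detectable at this depth. PEG3, a paternally expressed zinc finger gene at chr19:56810077-56840726 (ENSG00000198300), had 2, 1 and 2 counts against 0, 0 and 2. A count of 0 allows up to 0.253 CPM in siTRIM28 2. MEST, a paternally expressed gene of the hydrolase fold at chr7:130486171-130506292 (ENSG00000106484), had 1, 2 and 1 counts against 2, 1 and 1. PEG3 and MEST were therefore at or below 2 counts in every library, and their ratios of 0.430 (0.0409 to 2.62) and 1.07 (0.200 to 5.77) leave both rises and falls possible. No member was at 0 counts in all 6 libraries. COPG2, which overlaps the 3′ end of MEST on the opposite strand, was expressed at 137 to 218 counts and was not called (log2 fold change -0.22, edgeR adjusted p = 0.088), whereas ZIM2, which overlaps PEG3, had 1 count in all.

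Levels between genes were compared per gene length, as RPKM (CPM divided by the kilobases of the gene). In siNC the order was IGF2 (58.6), PEG10 (22.3), PLAGL1 (3.15), SNRPN (1.25), CDKN1C (0.496), H19 (0.240), MEG3 (0.0231), MEST (0.0206), KCNQ1OT1 (0.0171) and PEG3 (0.0127), all mean RPKM. Neighbours from IGF2 down to MEG3 did not overlap over the 3 libraries, and MEG3, MEST, KCNQ1OT1 and PEG3 each overlapped the next. IGF2 exceeded 95.6% of the tested genes in siNC, and PEG10 exceeded 89.0%. KCNQ1OT1 had more counts than CDKN1C in siNC but a far lower level per length, since its row holds 92625 bases against 2480. In siTRIM28, CDKN1C (1.35 RPKM) overlapped SNRPN (1.44 RPKM), and KCNQ1OT1 (0.0378 RPKM) was above MEST (0.0217 RPKM) without overlap. IGF2 (81.0 RPKM) and PEG10 (23.6 RPKM) kept the first and second rank.

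**Figure D3:**
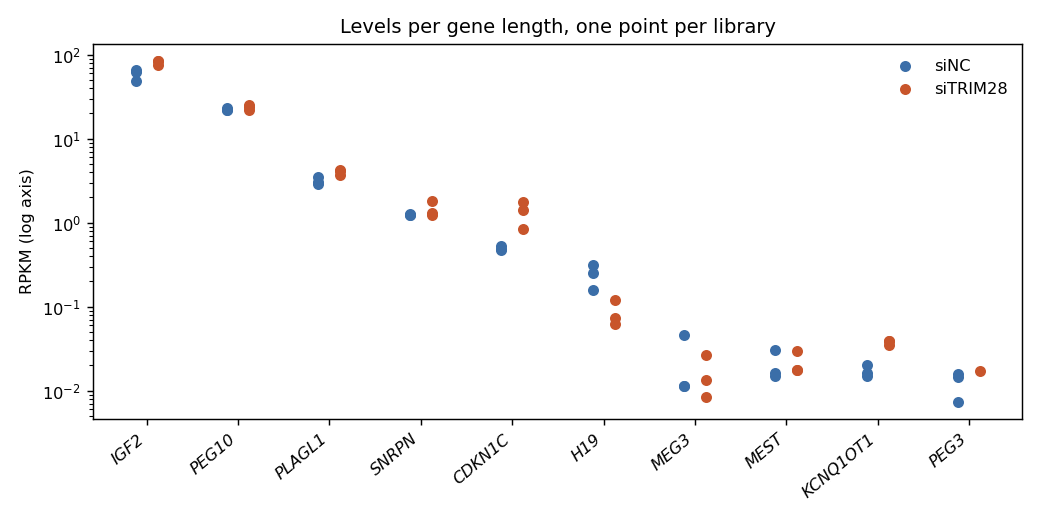
RPKM (log axis) of the 10 imprinted genes in each library of siNC (blue) and siTRIM28 (orange), ordered by the siNC mean from IGF2 (58.6) to PEG3 (0.0127). The levels span more than 3 powers of 10, and the siTRIM28 points of CDKN1C reach those of SNRPN. The 2 PEG3 values of 0 in siTRIM28 cannot be drawn on a log axis.

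Genes of 1 imprinted domain were compared with each other in 8 pairs in which both were tested, through the difference of their log2 changes. These are changes in mean log2 CPM with a prior count of 2, which shrinks changes at low counts. Their differences therefore depart from those of the edgeR log2 fold changes given above. No pair passed an exact two-sided permutation test, for which 3 against 3 libraries cannot give less than p = 0.1, and all p-values adjusted over the 8 pairs were at least 0.4. The log2 change of KCNQ1OT1 exceeded that of KCNQ1 by 0.78 (SE 0.17, p = 0.1 by exact permutation). The log2 ratios of KCNQ1OT1 to KCNQ1 were 0.13, 0.30 and 0.45 in siNC and 1.26, 0.80 and 1.18 in siTRIM28 and did not overlap. CDKN1C and KCNQ1OT1, which are expressed from opposite parental copies, differed in their log2 changes by 0.20 (SE 0.351, p = 0.6 by exact permutation). CDKN1C exceeded its neighbour PHLDA2 by 0.62 (SE 0.33, p = 0.2 by exact permutation), with the siTRIM28 2 log2 ratio close to those of siNC. SNRPN exceeded UBE3A by 0.37 (SE 0.152, p = 0.1 by exact permutation). For PEG10 and SGCE (-0.07), SNRPN and SNURF (0.11), SNRPN and SNHG14 (-0.13), and PLAGL1 and HYMAI (-0.24), the exact permutation p was between 0.4 and 0.6. With 3 libraries a group, these values do not show that the genes of a pair moved alike.

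Around CDKN1C and KCNQ1OT1, some other genes of chromosome band 11p15.5 were higher and some lower. Within 500 kb of CDKN1C, 6 of 11 tested genes rose and 2 fell, members left out, where 21.3% of all tested genes were called higher and 20.5% lower. Within 500 kb of KCNQ1OT1, 7 of 14 rose and 2 fell, and the 7 are the same 6 genes and ENSG00000284779, which appears to hold the IGF2 reads. With so few genes, which share a neighbourhood, these counts are a description. PHLDA2, a placental growth regulator expressed from the maternal copy, rose from 265, 317 and 271 counts to 419, 415 and 418, a log2 fold change of 0.66 (SE 0.0878, edgeR adjusted p = 9.62e-05). All siTRIM28 cultures were above all siNC cultures. SLC22A18, a maternally expressed transporter gene, had 20, 12 and 14 counts against 39, 17 and 21, which overlapped, and its log2 fold change of 0.84 (edgeR adjusted p = 0.0481) kept its call in 8 of 15 alternatives, with values from 0.50 to 1.05. It was not called without siNC 2, siNC 3, siTRIM28 1 or siTRIM28 3. The antisense gene ENSG00000305647 overlaps the 5′ end of PHLDA2 and had a log2 fold change of 0.91 (SE 0.168). CARS1, a transfer RNA synthetase gene that is not among the imprinted genes listed, rose from 105 ± 0.636 to 200 ± 1.79 CPM (SD, n = 3 each), by 0.93 on the log2 scale (SE 0.0395, edgeR adjusted p = 1.61e-08). CARS1-AS1, which overlaps CARS1, rose by 0.87 on the log2 scale (SE 0.141). OSBPL5 rose by 0.21 and kept its call in 9 of 15 alternatives. Between PHLDA2 and CARS1, the histone chaperone gene NAP1L4 fell by 0.68 on the log2 scale (SE 0.0486, edgeR adjusted p = 7.93e-07). The rises were thus not shared by every gene of the stretch. Within 500 kb of H19 and of IGF2, at the other end of the region, 4 of 16 and 3 of 14 tested genes fell, and 1 rose in each, which was ENSG00000284779, with counts close to those of IGF2. The falls shared by both windows were those of CD81, a membrane protein gene (log2 fold change -0.65, SE 0.0973), CTSD, which encodes a lysosomal protease (-0.39, SE 0.0595), and ENSG00000250644, which overlaps CTSD on the same strand (-0.41, SE 0.0635). These were chosen after their values were seen, and each was called in all 15 alternatives. The remaining fall near H19, that of MOB2, was called in 5 of 15.

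Over all members, 82 genes within 500 kb were tested, of which 16, ENSG00000284779 included, rose and 18 fell, with a median log2 fold change of -0.01 beside 0.02 over all genes. The called number was 34 of 82, where 41.8% of all tested genes were called. The largest falls among these neighbours were those of ZNF583, a zinc finger gene near PEG3 (log2 fold change -1.46), SF3B5, a splicing factor gene near PLAGL1 (-1.25), WARS1, a transfer RNA synthetase gene near MEG3 (-1.11), ENSG00000258666, which overlaps WARS1 (-0.92), and NAP1L4. The largest rises were those of LINC00513 near MEST (0.98), ENSG00000270890 near PLAGL1 (0.96), ENSG00000258504 near MEG3 (0.95), CARS1 and ENSG00000305647. ENSG00000270890 was called in 4 of 11 alternatives that tested it, ENSG00000258666 in 8 of 14, ENSG00000258504 in 10 of 14 and ZNF583 in 11 of 11. Within 500 kb of PEG3, 0 of 15 tested genes rose and 3 fell. Beside ZNF583 these were ZFP28, called in 5 of 15 alternatives, and ZNF71, called in 4 of 15, both named after their values were seen. Both lost the call with most single libraries left out, and over the alternatives their log2 fold changes were -0.73 to -0.50 and -0.28 to -0.21. Near PEG10 1 of 3 fell and near SNRPN 1 of 7 rose and 1 fell. Near PLAGL1 3 of 16 rose and 3 fell, near MEST 3 of 11 rose and 2 fell, and near MEG3 2 of 6 rose and 3 fell. With siNC 3 left out, 22 neighbours were called, 11 in each direction, among 79 tested.

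Imprinted genes outside the 10 were mixed in direction. Of 53 such genes listed, 49 were in the table and 27 were tested, of which 9 rose, 6 fell and 12 were not called, with a median log2 fold change of 0.17. Over all tested genes 21.3% rose and 20.5% fell, with a median of 0.02. The largest rises beside SLC22A18 and PHLDA2 were those of CPA4, a carboxypeptidase gene near MEST (log2 fold change 0.81, edgeR adjusted p = 0.00541), ZNF331, a zinc finger gene (0.67, adjusted p = 0.0266), and MKRN3, a ubiquitin ligase gene of the Prader-Willi region (0.64, adjusted p = 0.0482). The largest falls were those of NAP1L5 (log2 fold change -0.62), PPP1R9A, a neighbour of PEG10 (-0.43), ZDBF2 (-0.39), NAA60 (-0.34) and GRB10, an inhibitor of insulin and IGF receptor signalling (-0.32). The calls of CPA4, PPP1R9A, ZDBF2 and GRB10 held in all 15 alternatives, against 13 for NAA60, 10 for ZNF331 and 9 each for MKRN3 and NAP1L5, and no sign changed in these. IGF2R, the receptor that clears IGF2 and is imprinted variably in humans, was chosen after its values were seen. It had 1377, 1414 and 1337 counts in siNC and 2255, 1839 and 1821 in siTRIM28, or 102 ± 2.82 against 156 ± 3.81 CPM, a log2 fold change of 0.62 (SE 0.0443, edgeR adjusted p = 7.67e-07). The number called in this list moved with the test and the libraries, from 15 to 7 with DESeq2 and to 9 without siNC 2.

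RNA of genes whose proteins keep imprints was also counted. ZFP57 had 0 counts in every library, which allows at most 0.214 to 0.253 CPM. ZNF445, which encodes the other zinc finger protein named above, had 399, 407 and 393 counts in siNC and 323, 280 and 309 in siTRIM28, a fall of the log2 level by 0.29 (SE 0.0696, edgeR adjusted p = 0.00566) with no overlap. DNMT1, whose enzyme copies DNA methylation after replication, rose from 393 ± 8.69 to 515 ± 20.4 CPM (log2 fold change 0.39, SE 0.0409, edgeR adjusted p = 1.57e-05). UHRF1, whose protein guides DNMT1 to newly copied DNA, had a log2 fold change of 0.16 (edgeR adjusted p = 0.0111) and was called in 10 of 15 alternatives. The RNA of CTCF, an insulator protein that binds the unmethylated control region between H19 and IGF2, fell by 0.40 on the log2 scale (SE 0.0457, edgeR adjusted p = 3.09e-05). Of 17 tested genes among 25 such factors, 5 rose and 5 fell, with the siRNA target TRIM28 among the falls. Without TRIM28, 5 of 16 rose and 4 fell, and the median log2 fold change was 0.06. Over all tested genes 21.3% rose and 20.5% fell. The other rises were those of ATRX (0.56), a chromatin remodeller, SMCHD1 (0.21), a chromatin protein of X inactivation and imprinted clusters, and the histone gene H3-3B (0.16). The other falls were those of ZNF202 (-0.56), a zinc finger gene, and CBX1 (-0.14), which encodes HP1 beta and lost its call in 7 of 15 alternatives.

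**Figure D4:**
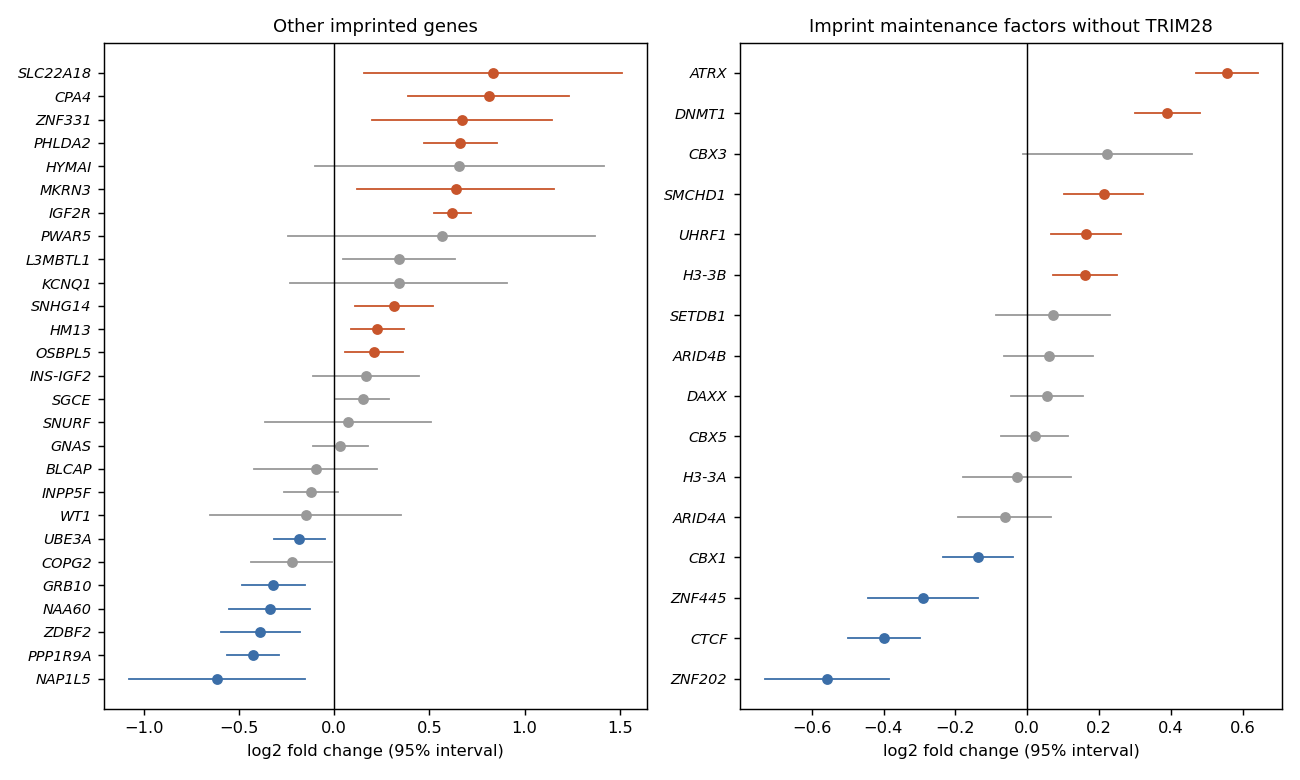
Log2 fold change with 95% interval (horizontal axes, siTRIM28 against siNC) of the 27 tested imprinted genes outside the 10 (left) and of 16 tested imprint maintenance factors without TRIM28 (right), sorted by value. Orange marks an adjusted p under 0.05 with siTRIM28 higher, blue the same with siTRIM28 lower and grey the rest, with 9 orange and 6 blue genes on the left and 5 and 4 on the right.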

How the data were processed

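RNA was sequenced from 6 T24 libraries, 3 siNC and 3 siTRIM28, grouped by their labels. The values are read counts per gene as the authors deposited them, unnormalized, with GRCh38 coordinates and gene lengths. The submitters' processing notes name fastp 0.23.1, STAR 2.7.6a and featureCounts. The annotation release, the strand setting and the treatment of duplicate reads and of reads shared by overlapping genes are not given in the sources used here. A deposited RPKM list of the authors' differentially expressed genes was not used.

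After TMM scaling, the quasi-likelihood test of edgeR 4.0.16 (R 4.3.3) was applied to 18474 genes, each with 10 counts or more in 3 or more libraries, with Benjamini-Hochberg adjustment and a threshold of 0.05. The procedure was first tested on simulated data. CPM uses the TMM-scaled library sizes, and RPKM divides it by the gene length of the table. Pairs were tested by exact permutation of log2 CPM (prior count 2). Intervals of summed counts are exact at 95%, and they and the limit of 3 counts for a count of 0 cover counting error only. Alternatives were other scalings, DESeq2 1.42.0, limma-voom (limma 3.58.1), other count filters, a block for the replicate number, leaving out single libraries, and the closest libraries of each group summed. Promoter and miRNA sequences are from RefSeq (GRCh38.p14). Tables were made in Python 3.11.15 with pandas 2.3.3 and scipy 1.17.1, and figures with matplotlib 3.10.9.

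The members and lists were chosen with earlier results of these data known. Named are all members, TRIM28, ZFP57, ZNF445, DNMT1, the called genes with the 5 lowest and 5 highest log2 fold changes of each list, and the partners of pairs. The tested genes overlapping a member are also named, and some of the untested ones. All 6 libraries enter every reported value unless a sentence says otherwise.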

Additional observations from a re-analysis of the deposited data

How the results depend on the processing

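The calls and directions of CDKN1C, KCNQ1OT1, IGF2 and PLAGL1 held in all 15 alternatives, in which PEG10 and SNRPN were not called. The number of called members was 4, or 5 with every gene of at least 1 count tested. In that setting adjusted p-values moved far from the main ones, as given above with H19. The number over all genes ran from 5832 to 8130 beside 7721. Of all called genes 51.0% were higher, with a range over the alternatives from 45.9% with the closest libraries summed to 56.6% with upper-quartile scaling. The called number of other imprinted genes fell from 15 to 7 with DESeq2 (4 higher, 3 lower) and to 8 with the closest libraries summed, and ranged from 9 to 16 with 1 library left out. Summing the closest libraries also left 6 called imprint maintenance factors, TRIM28 included, in place of 10, and 22 neighbours in place of 34, and with 1 library left out the neighbours ranged from 22 to 32. Beyond the fewer libraries in the sums, the cause was not tested. Same-numbered libraries of the groups deviated together with correlations of 0.05, -0.01 and 0.04, so the numbers were not taken to pair them. With the replicate number as a block, 7913 genes, 4 members, 15 other imprinted genes, 11 factors and 30 neighbours were called. Of the pair differences, SNRPN against SNHG14 ranged from -0.31 to 0.00 with 1 library left out, and the sign of the other 7 held. Depth limits H19, MEG3, PEG3 and MEST.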
